A study of Mus musculus with 12 samples.

Results

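The genes described here encode the enzymes that write, copy and remove cytosine methylation and 2 of the proteins that read it. They are Dnmt1, Uhrf1, Dnmt3a, Dnmt3b, Tet1, Tet2, Tet3, Mbd2 and Mbd3, chosen by name, and every peak whose deposited annotation names one of them was taken. All 9 occur among the 23433 genes named in the peak lists. The measurement was H4K8ac, acetylation of lysine 8 on histone H4, mapped by chromatin immunoprecipitation and sequencing (ChIP-seq). H4K8ac is a mark of active promoters and enhancers, and it is not itself a measure of RNA, protein or DNA methylation.

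The chromatin came from oligodendrocyte progenitor cells (OPCs), the glial cells that produce myelinating oligodendrocytes. The cells were sorted from forebrain of mice with the genotype Pdgfrα-H2BEGFP, in which a nuclear green fluorescent protein marks cells that use the Pdgfrα gene, and all groups carried this reporter. The neonatal group was postnatal day 5 and the adult group postnatal day 60, with 3 H4K8ac libraries each, which the labels call biological replicates. The reporter also marks other cells that use Pdgfrα, such as fibroblasts, and progeny that still hold the stable protein, and the labels do not say how many animals made a library. The 6 input libraries were not analysed here.

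The lists differed greatly in length, and this bears on every count that follows. The neonatal lists held 9097, 31189 and 7353 peaks and the adult lists between 72278 and 77002. Neonatal replicate 2 stood apart from the other neonatal libraries. Read depth is not given in the files, so its part in these lengths was not tested. In the authors' deposited table of differential sites, 43634 of 43888 listed sites were higher in adult cells. Of 6 progenitor markers (Pdgfra, Cspg4, Sox10, Olig1, Olig2, Ptprz1), 6 had a promoter peak in each library except adult replicate 2, where 5 had one. Of 6 markers of mature oligodendrocytes, only 1 had a promoter peak in each neonatal library and 6 in each adult library, and the length covered by peaks over these genes was 0.435 to 5.84 kb in neonatal and 74.2 to 93.9 kb in adult libraries. Over the 6 progenitor markers the covered length was also higher in every adult library, 4.29 to 31.5 kb in neonatal and 57.7 to 83.5 kb in adult libraries. Of 4 microglial, 3 endothelial and 5 fibroblast or pericyte markers, the adult libraries had promoter peaks at 1, 1 and 1 to 2, and the neonatal libraries at 0, 0 and 0 to 3. Promoter peaks at 4 neuronal markers numbered 0 to 2 in neonatal and 2 to 3 in adult libraries, and at 4 astrocyte markers 1 to 2 and 0 to 3. In these bulk libraries more marked cells and more mark per cell cannot be told apart, and the part of other cell types in the results was not tested.

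DNA methylation is placed mainly on cytosines that precede guanine (CpG). Dnmt3a and Dnmt3b set new methylation, whereas Dnmt1 copies it to the daughter strand after replication with the help of Uhrf1, which recognises the hemimethylated site. Tet1, Tet2 and Tet3 oxidise methylcytosine, the first step of its removal. Mbd2 binds methylated CpG, and its relative Mbd3, which binds it poorly in mammals, takes the same place in the repressive NuRD complex. In the oligodendrocyte lineage this machinery is known for its part in progenitor division, differentiation and myelin repair, Dnmt1 being most needed in dividing neonatal progenitors.

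The promoters of these genes are the places where most of their H4K8ac lay, and 5 are shown because they cover the range from marked in every library to hardly marked. Each is the RefSeq window of 300 bases (GRCm38.p6), from 250 bases before to 50 bases after a start, written 5′ to 3′ on the gene's strand, with each CpG in capitals. Dnmt3a at chr12:3806910-3807209 (plus strand) was covered by a peak over its whole length in all 6 libraries. Dnmt1 at chr9:20952574-20952873 (minus strand) was covered whole in the 3 adult libraries and not touched by a peak in any neonatal library. Uhrf1 at chr17:56304063-56304362 (plus strand) was touched over 30 to 63 bases in 1 neonatal and 2 adult libraries. Tet1 at chr10:62887275-62887574 (minus strand), its upstream start, was marked in neonatal replicate 2 and the 3 adult libraries. The window at the internal Dnmt3a start at chr12:3891494-3891793 (plus strand) was touched only in adult replicates 1 and 2. Adult replicate 3 had a peak of 159 bp just downstream of this window.
Dnmt3a main start: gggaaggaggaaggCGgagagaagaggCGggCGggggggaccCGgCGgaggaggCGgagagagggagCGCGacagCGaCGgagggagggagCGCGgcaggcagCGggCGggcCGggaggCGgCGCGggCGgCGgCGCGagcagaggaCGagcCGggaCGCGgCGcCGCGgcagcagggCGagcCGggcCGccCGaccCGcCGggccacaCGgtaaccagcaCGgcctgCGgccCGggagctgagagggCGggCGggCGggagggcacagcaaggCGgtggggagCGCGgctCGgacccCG
Dnmt1: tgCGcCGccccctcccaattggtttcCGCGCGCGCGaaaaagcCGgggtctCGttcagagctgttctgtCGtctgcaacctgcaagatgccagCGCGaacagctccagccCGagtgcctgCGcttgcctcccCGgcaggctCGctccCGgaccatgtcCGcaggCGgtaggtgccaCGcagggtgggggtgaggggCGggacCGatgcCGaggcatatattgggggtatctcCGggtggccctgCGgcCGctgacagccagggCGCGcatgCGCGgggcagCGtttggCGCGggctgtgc
Uhrf1: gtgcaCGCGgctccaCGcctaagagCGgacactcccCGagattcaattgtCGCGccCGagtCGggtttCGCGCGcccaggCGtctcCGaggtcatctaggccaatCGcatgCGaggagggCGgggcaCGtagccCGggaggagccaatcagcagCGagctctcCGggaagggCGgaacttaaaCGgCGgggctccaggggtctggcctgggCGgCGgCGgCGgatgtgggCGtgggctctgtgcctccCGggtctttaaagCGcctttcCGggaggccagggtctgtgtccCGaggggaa
Tet1 upstream start: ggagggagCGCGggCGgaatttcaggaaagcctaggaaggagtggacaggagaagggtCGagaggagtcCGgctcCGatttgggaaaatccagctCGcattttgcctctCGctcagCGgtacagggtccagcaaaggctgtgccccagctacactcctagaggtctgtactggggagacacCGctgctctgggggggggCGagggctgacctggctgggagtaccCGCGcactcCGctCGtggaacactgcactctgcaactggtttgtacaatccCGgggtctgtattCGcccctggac
Dnmt3a internal start: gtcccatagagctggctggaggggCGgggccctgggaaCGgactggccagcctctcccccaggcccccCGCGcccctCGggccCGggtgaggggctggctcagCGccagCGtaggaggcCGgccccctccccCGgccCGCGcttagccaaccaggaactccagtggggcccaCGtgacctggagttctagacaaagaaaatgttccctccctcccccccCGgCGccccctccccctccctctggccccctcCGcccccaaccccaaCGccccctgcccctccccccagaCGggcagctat

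These windows differed widely in CpG content. The RefSeq table held 13 promoters of 8 members and none of Mbd2. Their median CpG count was 22, against 7 over 32619 promoters. Tet2 had the most, 57 CpG, followed by Dnmt3a with 47 and 46 at its overlapping main starts. Dnmt1 and Uhrf1 each had 33, Dnmt3b 30, the internal start of Dnmt3a 18 and the upstream start of Tet1 17. Among all promoters the median CpG count was 34 where a peak touched the window in all 6 libraries, 22 where it did so in 1 neonatal and 3 adult libraries, 16 where it did so in the 3 adult libraries alone, and 3 where no library had a peak. Of 2811 promoters with at least 33 CpG, 85.5% had a peak in all 3 adult libraries and 33.9% in all 3 neonatal libraries, and Uhrf1 was in neither class. The motif GGGCGG (the Sp1 box), searched like the next motifs on both strands, occurred in 35.9% of all promoters and in 11 of the 13 member windows, among them the 5 printed above. TTTCCCGC, an E2F-type motif, occurred in 1.08% of promoters and in no member window. TTTGGCGC, another E2F-type motif, occurred in 0.518% of promoters and in 1 member window, that of Dnmt1. None of these motifs contains another.

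At the level of promoters, most of the machinery was already marked in neonatal cells. Dnmt3a, Dnmt3b, Tet1, Tet3, Mbd2 and Mbd3 had an assigned promoter peak, within 3000 bp of an annotated start, in all 6 libraries. That is 6 of 9 members, where 21.5% of the 18548 genes with a promoter peak in any library had one in all 6. No member had promoter peaks in the 3 adult libraries and in no neonatal library, a pattern of 12.1% of genes. Without neonatal replicate 2, the longest neonatal list, 36.3% of genes and 1 member, Tet2, had this pattern. The Tet2 call rests on the deposited assignment: by position Tet2 had a start peak in every library, so that 7 members were marked in all 6. The share of all genes marked in all 6 by position was not computed. The number of members with a promoter peak was 6, 9 and 7 in neonatal replicates 1 to 3 and 8, 9 and 9 in adult replicates 1 to 3. These numbers overlapped between the ages, with means of 7.33 ± 1.53 and 8.67 ± 0.577 (SD, n = 3 each). Without neonatal replicate 2 the difference between the means rose from 1.33 to 2.17.

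What differed was the extent of the marked chromatin. Peaks assigned to the members covered 4.0, 11.03 and 4.33 kb in the neonatal libraries and 25.1, 23.9 and 32.3 kb in the adult libraries. For 8 of 9 members, all but Uhrf1, the covered length in every adult library exceeded that in every neonatal library, where 60.0% of all 23433 genes did so. Among the 3996 genes with promoter peaks in all 6 libraries the share was 79.7%, and it was 6 of 6 among the members of that class. Over promoter peaks alone the count was again 8 of 9, against 60.1% of genes. For each of the 8 the exact two-sided permutation test gave p = 0.1, the smallest that 3 against 3 libraries can give, and the Benjamini-Hochberg adjusted value over all genes was 0.166, so none passed 0.05. Per 1000 peaks of a library, the members held 0.769, 0.577 and 1.09 in neonatal and 0.567, 0.592 and 0.636 in adult replicates 1 to 3, and these rates overlapped. By this measure the members gained no more peaks than the lists as a whole.

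**Figure D1:**
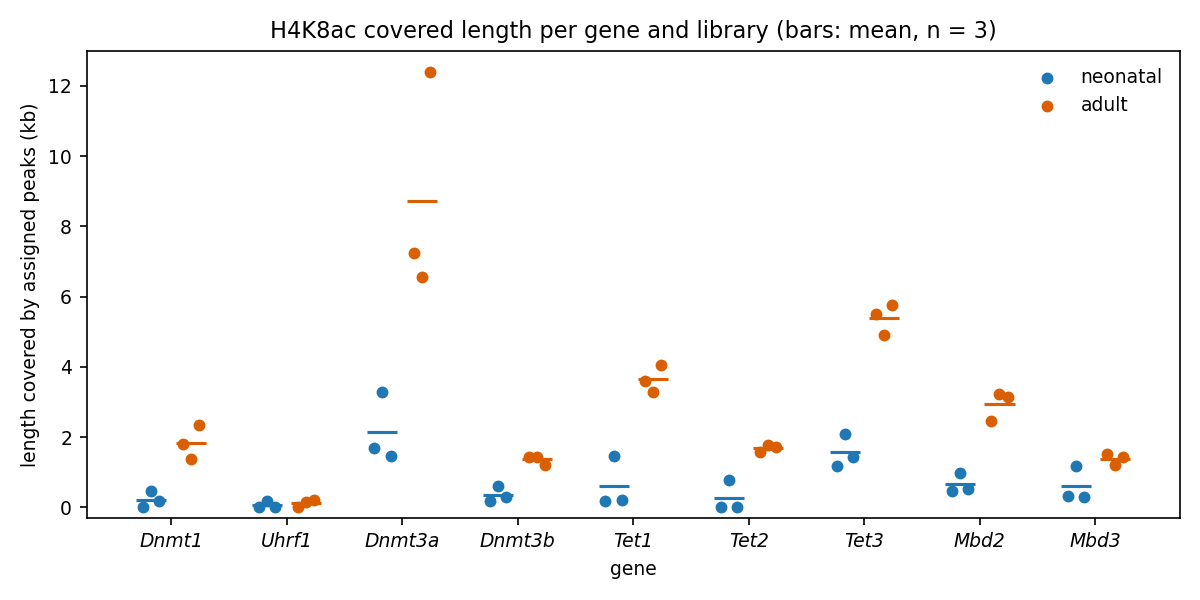
Length in kb covered by the peaks assigned to each gene (vertical axis), with 1 point per library and a bar at the mean of 3. Adult points lie above all neonatal points for every gene except Uhrf1, and Dnmt3a spans the widest range, from 1.45 kb in neonatal replicate 3 to 12.4 kb in adult replicate 3.

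Dnmt1, the maintenance methyltransferase (ENSMUSG00000004099.16, chr9:20907206-20959888, minus strand), had the thinnest neonatal mark of the 8 genes that gained length without overlap. Its covered length was 0, 0.470 and 0.167 kb in the neonatal libraries and 1.79, 1.37 and 2.34 kb in the adult libraries. The adult values were all higher, with means of 0.212 ± 0.238 and 1.83 ± 0.485 kb (SD, n = 3 each), an 8.64-fold ratio. In the neonatal libraries the 2 promoter peaks began downstream of the start printed above and did not reach it. In the adult libraries a single block of 1220, 1227 and 1723 bp ran across this start and the next annotated start upstream. The window at the outermost start was without a peak in all 6 libraries. Intronic peaks further into the gene were in the 3 adult libraries and in no neonatal library. In the authors' deposited table the promoter site of Dnmt1 was 2.55 higher in adult cells on the log2 scale (adjusted p = 2.27e-07 from their DiffBind comparison).

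Uhrf1, the partner that brings Dnmt1 to replicated DNA (ENSMUSG00000001228.14, chr17:56303337-56323486, plus strand), was the exception. Only single short peaks of 173 bp in neonatal replicate 2, 159 bp in adult replicate 2 and 210 bp in adult replicate 3 were assigned to it. The ages overlapped, with means of 0.0577 ± 0.0999 and 0.123 ± 0.110 kb (SD, n = 3 each; exact permutation p = 0.7, Benjamini-Hochberg adjusted p = 0.874). These peaks stood in the weakest part of their lists, at 85.1%, 82.9% and 95.8% of the way down, with fold enrichments over background of 3.33, 3.28 and 2.59. No site assigned to Uhrf1 is listed in the authors' deposited table. The lack of mark was local. Within 10 kb of the gene, peaks given to other genes raised the covered length to 0.169, 0.934 and 0.242 kb in neonatal and 2.63, 3.39 and 5.65 kb in adult libraries, and the neighbouring Kdm4b start alone, belonging to a histone demethylase, had a promoter peak in all 6 libraries.

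**Figure D2:**
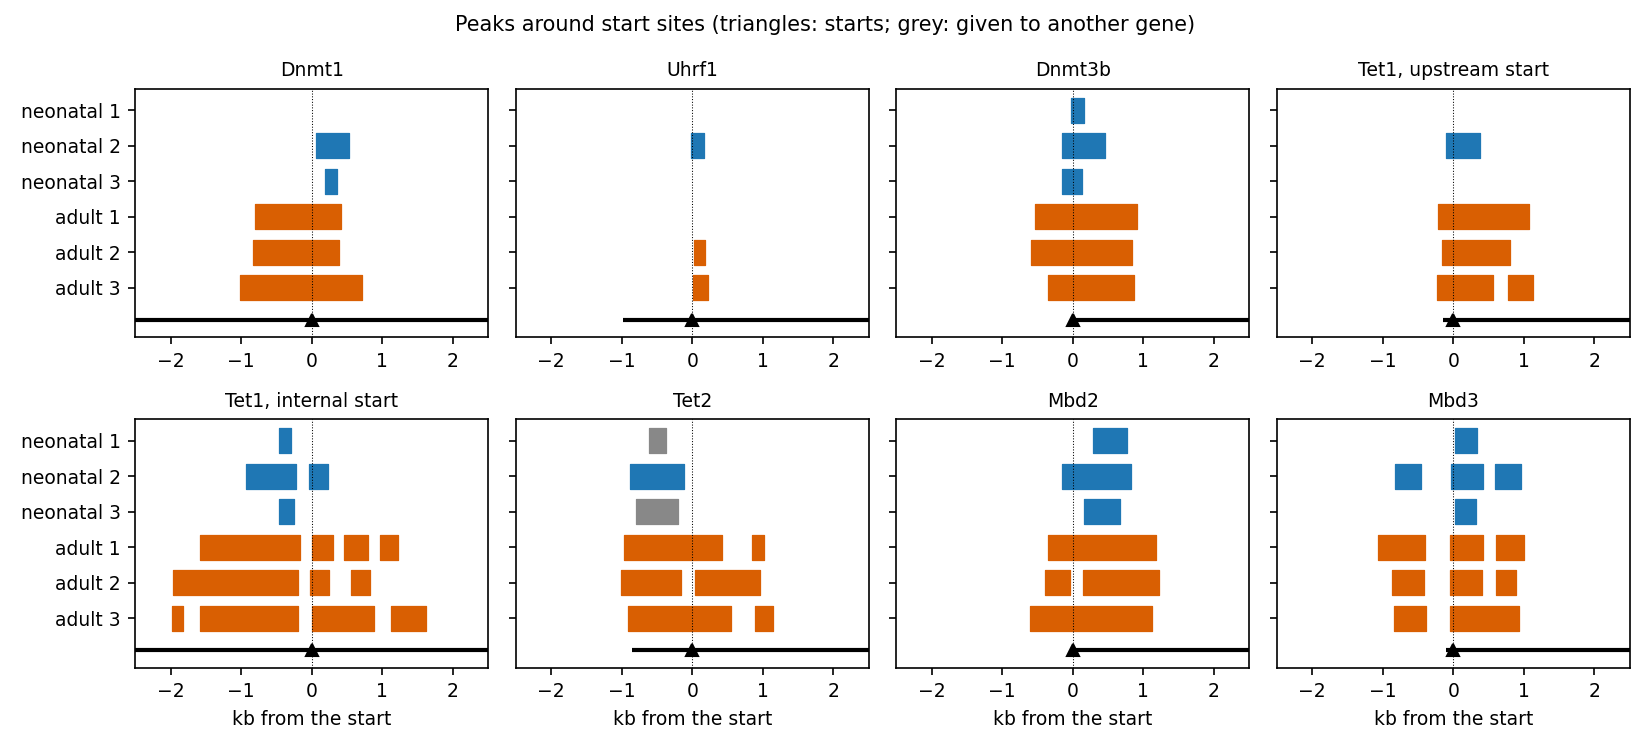
Peaks (blocks, 1 row per library, neonatal blue and adult orange, grey where the peak was given to another gene) around 8 starts, with distance from the start in kb along the gene on the horizontal axis; the black line is the gene and triangles are starts. Adult blocks extend to both sides of the Dnmt1, Dnmt3b and Mbd2 starts where neonatal blocks are short, and Uhrf1 has short blocks in 3 libraries.

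Dnmt3a, the main de novo methyltransferase of the postnatal brain (ENSMUSG00000020661.15, chr12:3801559-3914443, plus strand), was the most widely marked member. Its covered length was 1.69, 3.28 and 1.45 kb in neonatal and 7.24, 6.55 and 12.4 kb in adult libraries, with means of 2.14 ± 0.997 and 8.73 ± 3.2 kb (SD, n = 3 each). All adult values were higher, and adult replicate 3 was the highest. The block over the main starts was present throughout, 1687, 2004 and 1292 bp wide in the neonatal and 3076, 2629 and 3167 bp wide in the adult libraries. It was among the strongest 0.468 to 7.65% of neonatal and 0.238 to 1.93% of adult peaks. Beyond this block the ages differed in number of peaks. Outside promoters the gene had 0, 2 and 1 peaks in neonatal and 9, 9 and 11 in adult libraries, all intronic except 2 in adult replicate 3. The lists also name starts far inside the gene, which serve shorter transcripts, and the peaks within 3000 bp of these starts are counted as promoter peaks.

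The main start was not where the site values of Dnmt3a were highest. In the authors' deposited table the main-start site was 1.46 higher in adult cells on the log2 scale (adjusted p = 0.000946). The 9 other listed sites of Dnmt3a, all inside the gene, ranged from 1.19 to 4.0. Of its promoter sites in the authors' deposited table, the one with the lowest adjusted p lay 67.3 kb from the outermost start of the gene, at 3.69 (adjusted p = 0.00019). It was not at a start itself: the adult peaks it overlapped lay 2627 and 2357 bp from the nearest start named in the lists. The window printed for the internal start, with its 18 CpG, lay at the edge of adult peaks of only 160 and 140 bp, with fold enrichments of 4.33 and 2.87 against 27.3 and 11.1 at the main start of the same libraries.

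**Figure D3:**
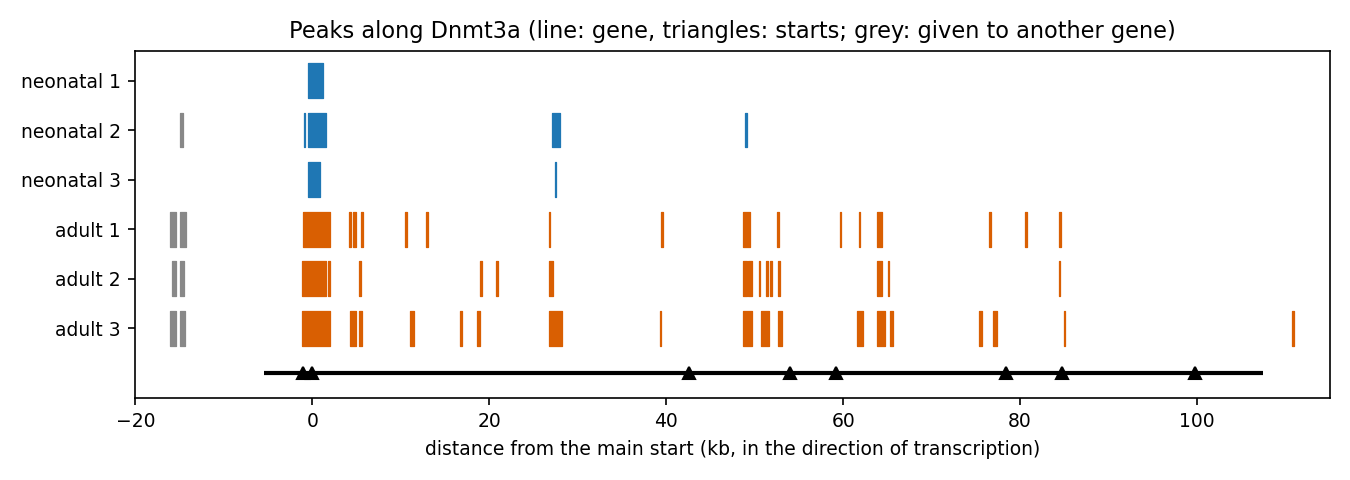
Peaks along Dnmt3a in each of the 6 libraries, with distance from the main start in kb in the direction of transcription; grey blocks were given to another gene, the black line is the gene and triangles are starts named in the lists. Every library has a block at 0, and the adult rows add many narrow blocks along the gene.

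Dnmt3b, the other de novo methyltransferase, best known for its work in the early embryo (ENSMUSG00000027478.15, chr2:153649411-153687730, plus strand), had a mark confined in these lists to its single start. It had exactly 1 peak in each library, of 191, 611 and 279 bp in neonatal and 1438, 1431 and 1216 bp in adult cells. The adult peaks were all wider, 1.36 ± 0.126 kb against 0.360 ± 0.221 kb (SD, n = 3 each). Its promoter site was 1.55 higher in adult cells on the log2 scale in the authors' deposited table (adjusted p = 0.000921).

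Tet1, an oxidase that carries a CpG-binding domain in its full-length form (ENSMUSG00000047146.17, chr10:62804570-62887469, minus strand), was marked at 2 starts that lie 22.02 kb apart. At the internal start the covered length within 1000 bp was 173, 984 and 202 bp in neonatal and 1502, 1351 and 1682 bp in adult libraries, so that every library had a peak. At the upstream start, whose sequence is printed above, it was 0, 484 and 0 bp in neonatal and 1215, 975 and 1025 bp in adult libraries. The upstream start was thus without a peak in the shorter neonatal lists, those of replicates 1 and 3. Over all its peaks Tet1 covered 0.614 ± 0.739 kb in neonatal and 3.65 ± 0.386 kb in adult cells (SD, n = 3 each). Its 4 listed sites, 3 around the internal and 1 at the upstream start, lay between 1.52 and 1.82 on the log2 scale in the authors' deposited table, so the difference between the ages was of similar size at both starts by that measure. Whether the starts differ from each other was not tested.

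Tet2, the oxidase without a CpG-binding domain of its own (ENSMUSG00000040943.12, chr3:133463677-133545136, minus strand), shows what the gene assignment can do. By assigned peaks it had 0, 0.766 and 0 kb in neonatal and 1.56, 1.78 and 1.71 kb in adult libraries. Neonatal replicates 1 and 3 nevertheless had peaks of 250 and 593 bp near the Tet2 start, which the deposited annotation gave to Gm42567. Counted by position, Tet2 had a start peak in all 6 libraries and covered 0.536 ± 0.263 kb in neonatal and 1.68 ± 0.112 kb in adult cells within 10 kb of the gene (SD, n = 3 each). The ratio fell from 6.60 by assignment to 3.14 by position, and the adult values were higher either way. Its promoter site was 1.43 higher in adult cells on the log2 scale in the authors' deposited table (adjusted p = 0.0016).

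Tet3, an oxidase known from the zygote and from neurons (ENSMUSG00000034832.15, chr6:83362373-83457208, minus strand), was undercounted by assignment in the opposite age. Assigned peaks covered 1.17, 2.10 and 1.42 kb in neonatal and 5.49, 4.89 and 5.75 kb in adult libraries. Over the whole gene body, whatever gene a peak was given to, the lengths were 1.17, 2.30 and 1.34 kb and 9.63, 11.3 and 14.1 kb. The ratio of the means was 3.44 by assignment and 7.28 over the gene body, and the ages did not overlap in either. At the upstream start every library had a peak, covering 920, 1464 and 1422 bp within 1000 bp in neonatal and 1611, 1821 and 1702 bp in adult libraries, and the site there was 1.20 higher in adult cells on the log2 scale in the authors' deposited table (adjusted p = 0.00722), the lowest of the members' listed promoter sites. At the internal start neonatal replicate 3 had no peak, neonatal replicates 1 and 2 had 246 and 902 bp, and the adult libraries 1801 to 1873 bp.

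The interior of Tet3 held the highest log2 values of any member, in peaks that the annotation gave to other genes. Peaks inside the gene that were given to Mir6374 or 5430434F05Rik numbered 0, 0 and 0 in the neonatal and 11, 12 and 15 in the adult libraries, where they covered 3.04, 4.11 and 6.03 kb. They were modest peaks, with a largest fold enrichment of 5.30 to 5.42. In the authors' deposited table, 15 sites lie inside Tet3, of which 9 were given to these other genes. The 9 had log2 values from 2.03 to 6.0 with a median of 3.11, and the 6 given to Tet3 ran from 1.20 to 4.41. Which transcript these intragenic marks belong to cannot be read from the peak lists.

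**Figure D4:**
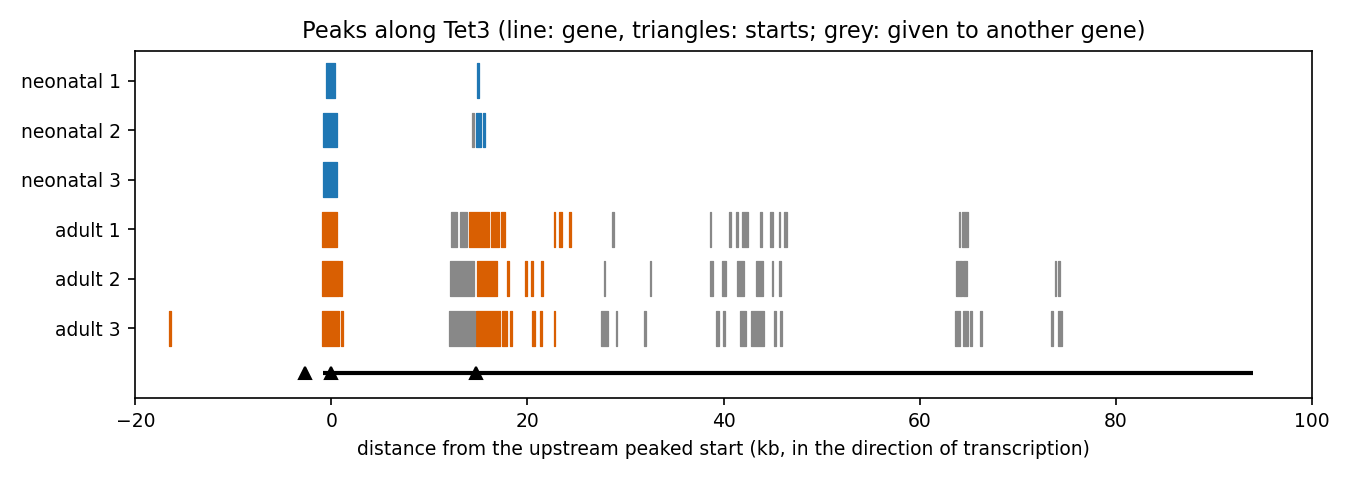
Peaks along Tet3 in each of the 6 libraries, with distance from the upstream start in kb in the direction of transcription; orange and blue blocks were given to Tet3, grey blocks to another gene, the black line is the gene and triangles are starts. Every library has a block at 0, and the grey blocks further inside the gene are in adult rows, apart from 1 next to the internal start in neonatal replicate 2.

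The readers Mbd2 and Mbd3 had strong promoter marks at both ages. Mbd2 (ENSMUSG00000024513.16, chr18:70568225-70629134, plus strand) had 0.475, 0.966 and 0.515 kb covered in neonatal and 2.47, 3.23 and 3.15 kb in adult libraries, all adult values being higher. Its start peak ranked 10, 576 and 540 by strength in the lists of neonatal replicates 1 to 3 and 33, 636 and 252 in those of adult replicates 1 to 3. The adult libraries added 3, 5 and 5 peaks outside promoters, where the neonatal libraries had none. The start site of Mbd2 was 1.49 higher in adult cells on the log2 scale in the authors' deposited table, and its 3 intronic sites, 5.32, 33.9 and 39.9 kb into the gene, were 3.62, 3.38 and 1.47 higher.

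Mbd3 (ENSMUSG00000035478.14, chr10:80392539-80399531, minus strand) is a compact gene of 6.99 kb, and its RefSeq start at position 80399531 lay between peaks. The RefSeq window at this start, with 22 CpG, was touched by no peak in any library. The lists name 2 other starts. That at position 80399422 was covered by the gene-side peak in neonatal replicate 2 and the 3 adult libraries, and that at position 80399550 by no peak in any library. Peaks flanked the RefSeq start on both sides in neonatal replicate 2 and the 3 adult libraries, with a gap of 431, 354, 377 and 334 bp between them. In neonatal replicates 1 and 3 only the peak on the gene side, of 310 and 294 bp, was present. The covered length was 0.310, 1.19 and 0.294 kb in neonatal and 1.52, 1.19 and 1.44 kb in adult libraries, and the nearest values of the ages, 1.188 and 1.192 kb, differed by a few bases. Within the gene body alone the ages overlapped (exact permutation p = 0.2, Benjamini-Hochberg adjusted p = 0.278). The sites on the gene side and on the upstream side were 1.32 and 1.98 higher in adult cells on the log2 scale in the authors' deposited table.

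Across the members, 8 of 9 had a listed promoter site higher in adult cells in the authors' deposited table, where 64.3% of genes did, and none had a site lower in adult cells. This share has to be read against the shift of the whole table. The number of tested sites, 54838, was inferred from the adjusted p-values, and 91.4% of listed sites gave a number within 1 of it. The median over all tested sites was then at least 2.04 on the log2 scale. That bound is over promoter and other sites together. Taking for each gene its promoter site with the lowest adjusted p, the median was 1.82 over the 8 members and 1.77 over all genes with one. For 3 members, Dnmt1, Dnmt3a and Tet3, the promoter site with the lowest adjusted p lay above the bound of 2.04, which does not place it above the median itself. For Dnmt3a and Tet3 this site, at 3.69 and 4.41, lay inside the gene and overlapped peaks in only 2 adult libraries. Their sites with a peak in all 6 libraries, at the main and upstream start, stood at 1.46 and 1.20. The 18 promoter sites of members had a median of 1.73 against 1.86 over all promoter sites, and their 13 other sites a median of 2.41 against 2.85 in the authors' deposited table. Where a site overlapped a peak in all 6 libraries, the members' 7 sites, 1 each of Dnmt3a, Dnmt3b, Tet1, Tet2, Tet3, Mbd2 and Mbd3, lay between 1.20 and 1.66 with a median of 1.46. For all 3408 such sites the authors' deposited table gave a median of 1.37 with quartiles of 1.18 and 1.58. Of the members' 7 sites, 6 lay between these quartiles and that of Tet1 above them. Sites with no neonatal peak, a class set by the absence of one, had medians of 2.41 for 19 member sites and 2.90 for 31440 sites in all.

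**Figure D5:**
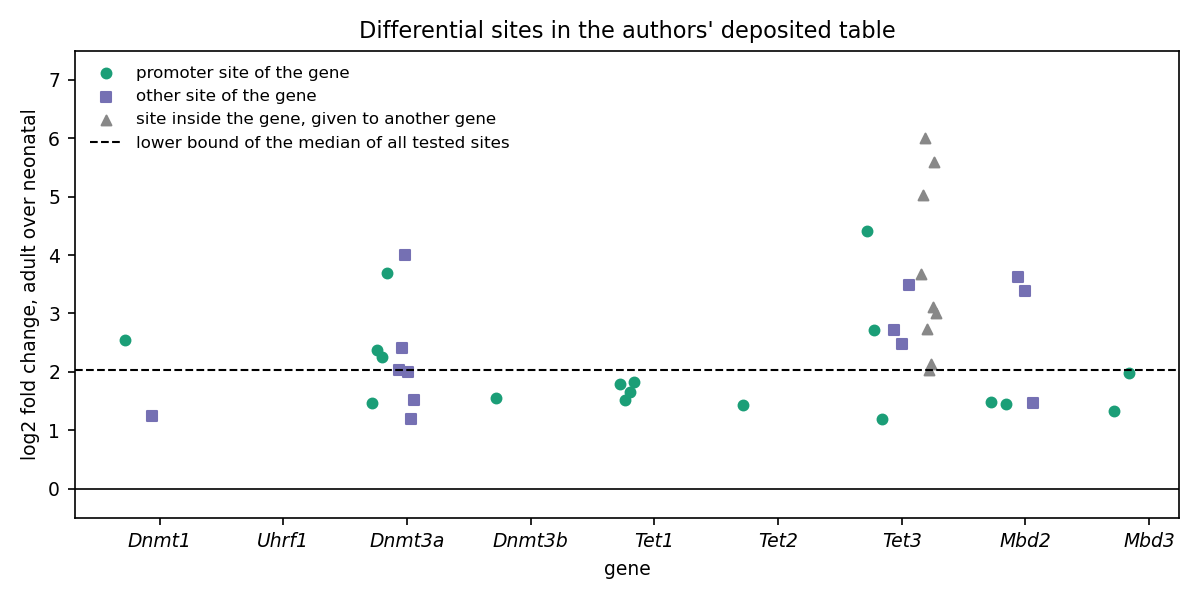
Log2 fold change, adult over neonatal, of each differential site in the authors' deposited table, by gene; circles are promoter sites, squares other sites of the gene, triangles sites inside the gene that were given to another gene, and the dashed line is the lower bound of the median of all tested sites, 2.04. All points lie above 0, Uhrf1 has none, and the highest triangles, up to 6.0, are inside Tet3.

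Outside promoters the members had 0, 2 and 1 peaks in the neonatal and 16, 19 and 23 in the adult libraries, without overlap. They belonged to 4 genes, Dnmt1, Dnmt3a, Tet3 and Mbd2. For 3 of these (Dnmt1, Tet3 and Mbd2) such peaks were in the 3 adult and in no neonatal library, that is 3 of 9 members, against 18.1% of all genes. When each library was reduced to its 7353 strongest peaks, the length of the shortest list, no adult library kept a peak outside promoters at any member, and the neonatal libraries kept 1 in all.

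The equal lists of 7353 peaks put the promoter results on a common footing of rank. The 6 members marked in all 6 libraries were so again, 6 of 9 against 12.2% of genes, and none had the pattern of 3 adult and 0 neonatal libraries, which 2.20% of genes had. Dnmt1 and Tet2 were in 1 neonatal and 3 adult equal lists each, and Uhrf1 in none. Covered length still separated the ages for 6 of 9 members, Dnmt1, Dnmt3a, Dnmt3b, Tet1, Tet2 and Mbd2, against 15.9% of all 23433 genes. That share includes genes that, like Uhrf1, have no peak in the equal lists and so cannot separate. The share among genes marked in all 6 equal lists was not computed. For Dnmt1 these lengths were 0, 0 and 0.167 kb in neonatal and 1.22, 1.23 and 1.72 kb in adult libraries. For Tet3 and Mbd3 the ages then overlapped.

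The wider pathway was described through 40 further genes in 4 lists, of which 18 had a promoter peak in all 6 libraries, where 21.5% of genes did. Promoter peaks in the 3 adult libraries alone, a pattern of 12.1% of genes, were found at 2 of the 40, Mbd4, a glycosylase that binds methylated CpG, and Mbd5. No gene had promoter peaks in the neonatal libraries alone. Dnmt3l, a cofactor of de novo methylation in germ cells, and Dppa3, a protector of maternal methylation, had none in any library. A promoter site higher in adult cells was listed for 30 of the 40 in the authors' deposited table and a promoter site higher in neonatal cells for none. The first share is near that of all genes, 64.3%. In the authors' deposited table the median log2 was 1.58 over the 30 against 1.77 over 12058 genes with a promoter site.

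The counts by list that follow stand against the same shares over all genes, 21.5% for a promoter peak in all 6 libraries and 64.3% for a promoter site higher in adult cells. Of 8 further genes of writing and maintenance, 3 were marked in all 6 libraries and 3 had a site higher in adult cells in the authors' deposited table. Hells, a remodeller needed for methylation, stood at 0.93, and Uhrf2, the paralogue of Uhrf1, at 1.07. Uhrf2 differed from Uhrf1 in being marked in every library, over 0.781, 1.16 and 0.908 kb in neonatal and 1.33, 1.51 and 1.77 kb in adult cells. Cdca7, a partner of Hells, had promoter peaks over 0.341, 1.05 and 0 kb in neonatal and 0.328, 0 and 0 kb in adult libraries, which overlapped, and no listed site. Of 8 further readers 6 had such a site, Mbd5 with the highest log2 value, 2.4. Of 13 genes of oxidation, repair and Tet regulation 11 had one, with Ogt, a glycosyltransferase that binds Tet proteins, at 5.24 and Cxxc5, a CpG-binding protein, at 3.05. Of 11 NuRD partners of Mbd2 and Mbd3, 7 were marked in all 6 libraries and 10 had a higher site in the authors' deposited table, from 0.96 for Hdac2 to 4.36 for Mta1.

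Closeness of pattern was measured as the Euclidean distance between 2 genes over the 6 libraries, on log2 of the covered promoter length plus 100 bp, among 46 genes. Tet1 was nearest to Gatad2a, a NuRD subunit, at 0.296, the smallest of the distances from a member to its nearest gene. Mbd2 was nearest to Zbtb4, a reader, at 0.40. Dnmt3a and Tet3 were nearest to each other at 0.712. Uhrf1 had the most distant nearest gene of the members, Apex1, a repair endonuclease, at 1.99.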

How the data were processed

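Per the submitters' processing notes, reads were handled with Trim Galore, Bowtie2 2.4.5, SAMtools, deepTools, MACS2, DiffBind and ChIPseeker on GRCm38. The authors deposited a peak list per library with a fold enrichment (a linear ratio) and −log10 p-values and q-values, and a table of differential sites with log2 fold changes and p-values. How those reads were normalised, and how many there were, is not given in the sources used here, so no counting intervals are given. Positive log2 values were taken to mean more mark in adults, because 71.7% of positive and 5.51% of negative sites overlapped a peak in all 3 adult libraries.

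Peaks were assigned to genes as deposited, or by position where stated. A site took the gene and class of the peak sharing most bases with it. Covered length per gene was compared by an exact two-sided permutation test over 20 arrangements of the libraries, with Benjamini-Hochberg adjustment over all genes, in scipy 1.17.1, pandas 2.3.3 and numpy 2.4.6 (Python 3.11.15), and the code was tested on simulated data. The p-values measure only the spread between these libraries. The members and lists were chosen with earlier results of these data known. All members are named. Of the pathway lists, genes marked at only 1 age, with a site higher in neonatal cells or with no promoter peak were to be named, and the nearest gene of each member. Hells, Cdca7, Uhrf2, Ogt, Cxxc5, Hdac2 and Mta1 were named after their values were seen. Alternatives were stricter q-values, equal lists, merged peaks, assignment by position and leaving out each library.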

Additional observations from a re-analysis of the deposited data

How the results depend on the processing

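The count of 8 members with non-overlapping covered length ranged from 6 (equal lists) to 9 (by position, over the gene and 10 kb to each side). The share of all genes that did so by position was not computed, so the 9 has no background beside it. The count was 8 with each library left out, but leaving out a library cannot lower it, because every value of these 8 was already apart. The flanks hold peaks given to other genes, as near Uhrf1. By position within the gene alone, the ages overlapped for Uhrf1 and Mbd3 (exact permutation p = 0.7 and 0.2). The difference in peaks outside promoters, 18.3 per library, was 14.7 at q-values under 0.005, 11.7 with peaks of a gene within 1000 bp merged and -0.333 with equal lists, where only the strongest peaks are kept; it ranged from 16.5 to 20 with 1 library left out. The difference in members with a promoter peak ranged from 0.667 to 2.17 with 1 library left out: it was 0.667 without neonatal replicate 1, 2.17 without neonatal replicate 2, and also 0.667 by position. For Uhrf1 the difference in covered length, 0.0653 kb, was -0.00467 kb at q-values under 0.005, as the peak of adult replicate 3 is lost; with 1 library left out it ranged from 0.022 kb (without adult replicate 3) to 0.127 kb (without adult replicate 1). Of 99 values of covered length under alternatives, 97 kept a positive difference. Many of these signs were fixed in advance. The replicate block repeats the main differences, and leaving out 1 library cannot reverse a gene whose ages do not overlap. The labels do not say whether replicate numbers pair the libraries. Deviations of same-numbered libraries correlated at -0.0586, 0.0149 and 0.0812 over 23433 genes, and those of differently numbered ones at -0.104 to 0.093. With 3 libraries per age these values cannot settle whether the libraries were paired. With the replicate block, 8 members were higher in every pair, which follows from the lack of overlap, and the sign-flip p cannot go below 0.25. Depth is unknown, and no value here can tell a weak mark from a shallow library.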

Other observations

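Upstream of Dnmt3a, outside the gene, the authors' deposited table holds 2 sites that the peak lists give to Dtnb, which encodes a dystrobrevin. They were 2.52 and 1.72 higher in adult cells on the log2 scale, both above the 1.46 at the main start of Dnmt3a. Peaks in this stretch numbered 0, 1 and 0 in the neonatal and 2, 2 and 2 in the adult libraries. Whether they belong to Dnmt3a or to Dtnb was not tested.

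At the Kdm4b start near Uhrf1, promoter peaks covered 0.169, 0.60 and 0.242 kb in neonatal and 1.15, 1.26 and 1.94 kb in adult libraries within 10 kb of Uhrf1, without overlap between the ages. In the same stretch Uhrf1 itself had at most 0.21 kb in any library.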
